A study of Saccharomyces cerevisiae with 12 samples.

Results

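The genes described here encode the disulfide-forming machinery of the yeast endoplasmic reticulum (ER). They comprise the 5 members of the protein disulfide isomerase family, PDI1, EUG1, MPD1, MPD2, and EPS1, and the 2 oxidases of the ER, ERO1 and ERV2. The 7 genes were taken by systematic identifier from the 7126 gene entries of the count table. They were chosen by family membership, without a threshold on any measured value. All 7 were among the 6044 genes that passed the filter on low counts. In the ER, the flavoprotein Ero1p takes electrons from the active-site cysteines of Pdi1p and passes them to oxygen, and Pdi1p oxidizes the cysteines of secreted proteins or reshuffles wrong disulfide bonds. Pdi1p is the essential member of the family, and its overexpression is a usual way to raise the secretion of proteins with disulfide bonds from yeast. Erv2p is a second flavoprotein that makes disulfide bonds independently of Ero1p, and the 4 homologs of PDI1 are nonessential and cannot all replace it.

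The samples are chemostat cultures of 3 Saccharomyces cerevisiae strains that secrete α-amylase, an enzyme with disulfide bonds. B184 was derived from MH34 by UV mutagenesis and screening, and MH34 was derived from AAC in the same way, so each evolved strain is 1 isolate. AAC is CEN.PK 530-1C, a MATa strain with a tpi1 deletion, carrying the 2 μm plasmid pAlphaAmyCPOT, on which the TPI1 promoter drives the α-amylase gene behind an alpha factor leader and the POT1 gene of Schizosaccharomyces pombe complements the deletion. All 3 strains share the deletion and the plasmid. Each strain was grown under glucose limitation at dilution rates of 0.2/h and 0.1/h, and RNA of 2 cultures labeled as biological replicates was sequenced for each of the 6 groups. At 0.1/h, the bioreactors of both evolved strains received ethanol, per the methods, which name none for AAC. Strain and ethanol therefore cannot be told apart in comparisons with AAC at 0.1/h, and dilution rate and ethanol cannot be told apart within MH34 and B184. The 12 libraries held 6040221 to 10785960 counts, and 132 to 637 per library fell on TPI1. The counts of the members reached from 511, for EUG1, to 32544, for PDI1.

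The active-site codons of the members are shown because they differ between the family members. A thioredoxin-type active site has 2 cysteines separated by 2 residues, of which the second is histidine in this family. The coding DNA of each gene was searched in frame for a cysteine codon, 2 further codons, and a cysteine codon. The stretches below are from the RefSeq R64 reference (strain S288C, not the strains sequenced), are written 5′ to 3′ on the coding strand, and have the 4 codons of the site in capitals.
PDI1, codons 61 to 64: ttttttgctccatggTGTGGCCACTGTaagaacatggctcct
PDI1, codons 406 to 409: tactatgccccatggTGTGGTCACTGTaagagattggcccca
EUG1, codons 62 to 65: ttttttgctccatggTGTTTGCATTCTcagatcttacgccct
EUG1, codons 405 to 408: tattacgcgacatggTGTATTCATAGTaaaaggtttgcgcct
MPD1, codons 59 to 62: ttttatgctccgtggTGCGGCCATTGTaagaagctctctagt
MPD2, codons 56 to 59: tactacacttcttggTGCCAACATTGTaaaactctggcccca
EPS1, codons 60 to 63: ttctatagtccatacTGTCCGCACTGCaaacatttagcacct
ERO1, codons 352 to 355: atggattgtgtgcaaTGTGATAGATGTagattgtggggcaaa
ERV2, codons 121 to 124: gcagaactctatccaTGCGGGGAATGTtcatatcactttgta

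PDI1 holds 2 such sites with histidine as the third codon, at chromosome III, 50015 to 50056 and 48980 to 49021. MPD1 (chromosome XV, 852877 to 852918), MPD2 (chromosome XV, 154554 to 154595), and EPS1 (chromosome IX, 345854 to 345895) each hold 1. EPS1 has a further site without histidine at codons 200 to 203. EUG1 holds no site with 2 cysteines. At the 2 places that correspond to those of PDI1 (chromosome IV, 1478776 to 1478817 and 1479805 to 1479846), its last codon is a serine codon. The oxidases lack the histidine. Cysteine pairs at other spacings were not searched for in any of the genes, so the stretches need not hold all redox-active cysteines. ERV2 has 1 site (chromosome XVI, 646652 to 646693), and ERO1 has 2 that share the cysteine codon 352 (the printed one at chromosome XIII, 12095 to 12136). Of the 7 genes, ERO1 has the most cysteine codons, 14 of 563, and MPD1 the fewest, 4 of 318.

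Each gene has 1 exon in the R64 annotation. PDI1 (YCL043C) is the only member on chromosome III. EUG1 (YDR518W) lies on chromosome IV from 1478608 to 1480161, MPD1 (YOR288C) on XV from 852121 to 853077, and MPD2 (YOL088C) on XV from 153912 to 154745. EPS1 (YIL005W) lies on IX from 345692 to 347797, ERO1 (YML130C) on XIII from 11483 to 13174, and ERV2 (YPR037C) on XVI from 646448 to 647038. ERV2 overlaps IRC16 on the opposite strand, to which 0 to 3 counts per library were assigned, and how the counting treated the overlap is not given in the sources used here. The other 6 overlap no annotated gene.

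PDI1 was by far the most abundant of the 7 mRNAs. Levels were compared between genes as RPKM, which is counts relative to the normalized library size and to the annotated gene length. At 0.2/h, PDI1 stood at 1880 ± 70.6 RPKM in B184, 1962 ± 292 RPKM in MH34, and 1255 ± 134 RPKM in AAC (SD, n = 2 each). At 0.1/h, it stood at 1703 ± 59.0 RPKM in B184, 1203 ± 33.8 RPKM in MH34, and 974 ± 74.2 RPKM in AAC (SD, n = 2 each). Over the 12 libraries, its mean level ranked at position 118 of 5712 genes. The next members, MPD2 with a mean of 229 RPKM, ERO1 with 190.4 RPKM, and ERV2 with 188 RPKM, ranked at positions 981, 1205, and 1228. MPD1 had a mean of 125 RPKM, EPS1 95.5 RPKM, and EUG1, which lacks the second active-site cysteine, 57.7 RPKM. EUG1 was the lowest member in each group.

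**Figure D1:**
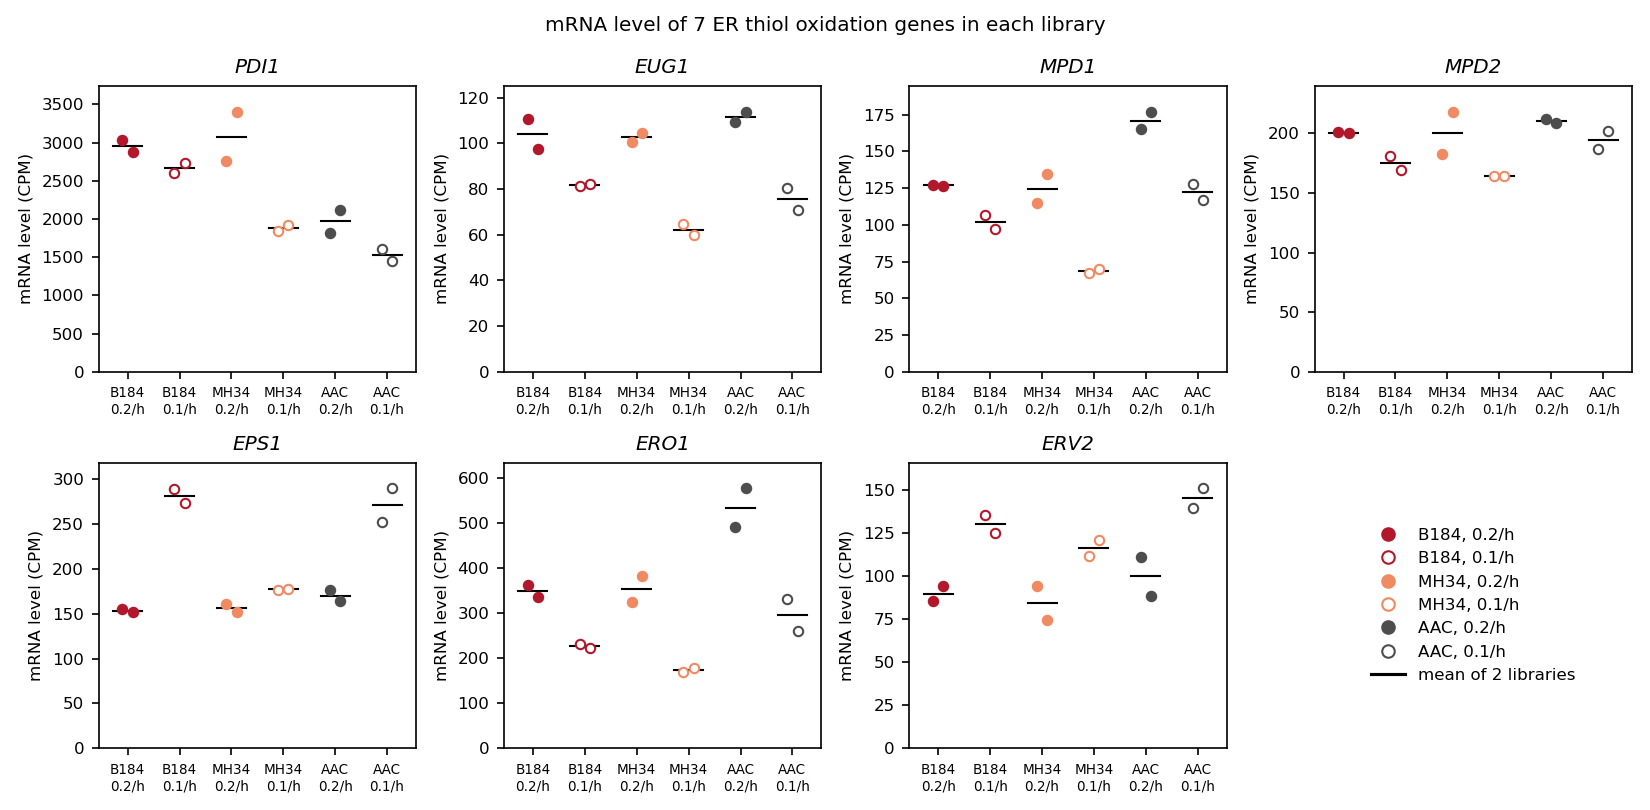
Level of each member in each library, in CPM (counts scaled to the normalized library size), with 1 panel per gene and the 6 groups along the horizontal axis. Filled points are libraries at 0.2/h, open points libraries at 0.1/h, and lines the mean of 2 libraries. PDI1 is higher in B184 and MH34 than in AAC at the same rate, ERO1 and MPD1 are lower, and EPS1 and ERV2 are lower at the faster rate, with a small difference for EPS1 in MH34.

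The order below PDI1 differed between the dilution rates. At 0.1/h, ERV2 and MPD2 came next after PDI1 in all 3 strains, at 221 and 210 RPKM in B184, 197 and 197 RPKM in MH34, and 245 and 233 RPKM in AAC, and their libraries overlapped in each strain. ERO1 followed, at 134 RPKM in B184, 103 RPKM in MH34, and 175 RPKM in AAC, and overlapped with EPS1 in B184. At 0.2/h, ERO1 stood above ERV2 in all 3 strains. It came next after PDI1 in AAC, with 316 RPKM, and behind MPD2 in B184, with 206 RPKM, and in MH34, with 209 RPKM, where it overlapped with MPD2. ERV2 overlapped with MPD1 at 0.2/h in MH34 and in AAC, and in each strain EPS1 and EUG1 were the lowest members at this rate, without overlap between them.

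The proportions within the family separated the evolved strains from AAC. PDI1 made up 68.8% and 67.9% of the summed RPKM of the 7 genes in B184, 67.9% and 70.8% in MH34, and 52.3% and 55.6% in AAC at 0.2/h. At 0.1/h, its share was 65.3% and 67.7% in B184, 63.3% and 63.6% in MH34, and 51.6% and 49.1% in AAC. The evolved strains did not overlap with AAC at either rate. The other 6 genes together ran the opposite way, with 864 to 877 RPKM in B184, 831 to 893 RPKM in MH34, and 1060 to 1076 RPKM in AAC at 0.2/h. At 0.1/h, their sum was 831 to 884 RPKM in B184, 682 to 702 RPKM in MH34, and 956 to 961 RPKM in AAC.

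The ratio of PDI1 to the oxidase that recharges its product was higher in the evolved strains in each library. PDI1 exceeded ERO1 9.02- and 9.24-fold in B184, 9.15- and 9.58-fold in MH34, and 3.99- and 3.96-fold in AAC at 0.2/h, on the RPKM scale. At 0.1/h, the ratios were 12.2 and 13.2 in B184, 11.8 and 11.7 in MH34, and 5.24 and 6.01 in AAC. In each strain the ratio was thus lower at the faster rate. The ratio of PDI1 to MPD1, the homolog whose overexpression can replace PDI1, was 13.8 to 17.2 in the 8 libraries of the evolved strains and 6.73 to 7.67 in the 4 of AAC. The ratio of the 2 oxidases differed between the rates instead, and within MH34 and B184 rate and ethanol cannot be told apart. ERO1 over ERV2 was 1.21 to 2.27 in the 6 libraries at 0.2/h and 0.514 to 0.831 in the 6 at 0.1/h. PDI1 enters the share and the ratios to ERO1 and MPD1, and it lies on chromosome III. The median gene of that chromosome was 0.84 to 0.99 higher on the log2 scale in the evolved strains than in AAC. The part of the chromosome in these proportions was not tested. The proportions are descriptions of the libraries and were not tested.

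**Figure D2:**
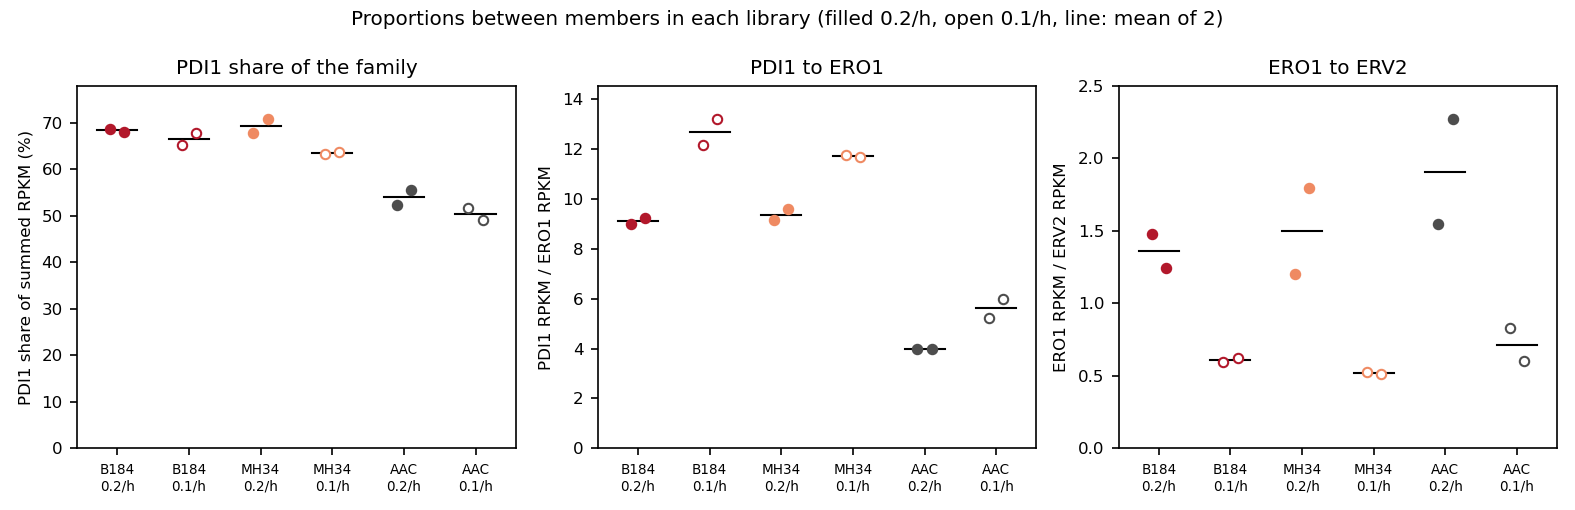
Share of PDI1 in the summed RPKM of the 7 genes, RPKM of PDI1 over that of ERO1, and RPKM of ERO1 over that of ERV2, for each library (points, filled at 0.2/h and open at 0.1/h) with the mean of 2 libraries (lines). The PDI1 share lies between 63.3% and 70.8% in the evolved strains and between 49.1% and 55.6% in AAC, and ERO1 over ERV2 lies above 1.2 at 0.2/h and below 0.84 at 0.1/h.

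The comparison with AAC asks how the machinery changed with improved α-amylase production. It was made on counts with edgeR's quasi-likelihood test, and a gene counts as called at a Benjamini-Hochberg adjusted p under 0.05 over all 6044 genes tested. PDI1 was the only member called higher, and ERO1 and MPD1 were called lower, in B184 at both rates and in MH34 at 0.2/h. In B184 at 0.2/h, 1 member was higher and 2 were lower, where 18.4% of all genes tested were called higher and 17.7% lower. In MH34 at 0.2/h, 1 was higher and 2 were lower, against 17.4% and 15.7% of all genes. In B184 at 0.1/h, 1 was higher and 2 were lower, against 16.5% and 20.4% of all genes. MH34 at 0.1/h stood apart, with 0 members called higher and 6 called lower, where 35.5% of all genes were higher and 33.3% lower. The median log2 fold change of the 7 genes there was −0.32, against 0.02 for all genes tested.

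PDI1 had 3029 and 2872 CPM in B184, 2755 and 3402 CPM in MH34, and 1821 and 2118 CPM in AAC at 0.2/h, where CPM is counts scaled to the normalized library size without regard to gene length. At 0.1/h, PDI1 had 2607 and 2738 CPM in B184, 1850 and 1925 CPM in MH34, and 1610 and 1446 CPM in AAC. Both libraries of each evolved strain lay above both of AAC at the same rate. The fold change was 1.5 in B184 and 1.56 in MH34 at 0.2/h, and 1.75 in B184 at 0.1/h. In MH34 at 0.1/h, the fold was 1.23 and the adjusted p was 0.0565 in edgeR's test, with a 95% interval of the log2 fold change from 0.02 to 0.59.

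ERO1 had 362 and 335 CPM in B184, 324 and 383 CPM in MH34, and 492 and 576 CPM in AAC at 0.2/h. Its log2 fold change against AAC was −0.61 in B184 (standard error 0.12, adjusted p = 0.003 from edgeR) and −0.59 in MH34 (standard error 0.12, adjusted p = 0.004 from edgeR). At 0.1/h, ERO1 had 231 and 224 CPM in B184, 170 and 178 CPM in MH34, and 332 and 260 CPM in AAC. The log2 fold change was −0.77 in MH34 (standard error 0.12, adjusted p = 2.2e-04 from edgeR) and −0.38 in B184 (standard error 0.12, adjusted p = 0.0345 from edgeR). The libraries of the evolved strains lay below those of AAC in all 4 comparisons. The call in B184 at 0.1/h was lost without any 1 of several libraries, for example without replicate 1 of AAC, which gave −0.19 (adjusted p = 0.234 from edgeR).

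MPD1, which encodes a small family member with 1 thioredoxin-type site, followed ERO1. It had 127 and 127 CPM in B184, 115 and 134 CPM in MH34, and 165 and 177 CPM in AAC at 0.2/h, with log2 fold changes of −0.43 in B184 (standard error 0.09, adjusted p = 0.0031 from edgeR) and −0.45 in MH34 (standard error 0.09, adjusted p = 0.0026 from edgeR). At 0.1/h, it had 107 and 97.2 CPM in B184, 67.4 and 69.7 CPM in MH34, and 128 and 117 CPM in AAC. MPD1 had the largest estimate of the 7 genes in MH34 at this rate, with a log2 fold change of −0.84 (standard error 0.09, adjusted p = 1e-05 from edgeR). That of ERO1 was −0.77, and the 95% intervals overlapped (−1.04 to −0.64 for MPD1 and −1.04 to −0.49 for ERO1). In B184 at 0.1/h, the log2 fold change of MPD1 was −0.26 (standard error 0.09, adjusted p = 0.0395 from edgeR). That call was also lost under other settings, with log2 fold changes of −0.22 when only B184 and AAC at 0.1/h were fitted and −0.20 without replicate 1 of AAC.

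**Figure D3:**
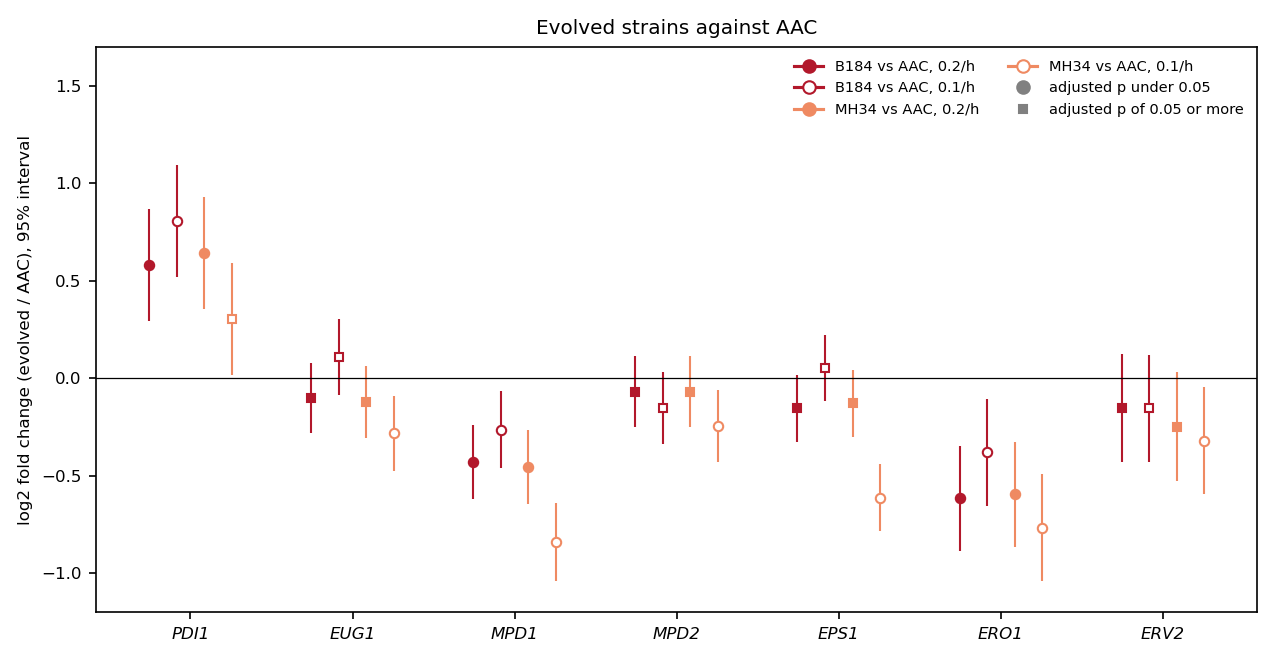
Log2 fold change of each member against AAC at the same dilution rate, with 95% intervals from edgeR's quasi-likelihood fit, for B184 (dark) and MH34 (light) at 0.2/h (filled) and 0.1/h (open). Round points passed an adjusted p of 0.05 and square points did not. PDI1 lies between 0.30 and 0.81, and MPD1 and ERO1 lie below 0 in all 4 comparisons.

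The remaining members were called only in MH34 at 0.1/h. EPS1 encodes a membrane-bound member that takes part in ER quality control. It had 288 and 273 CPM in B184, 176 and 178 CPM in MH34, and 252 and 289 CPM in AAC at 0.1/h, so that MH34 lay apart while B184 and AAC overlapped. Its log2 fold change in MH34 was −0.61 (standard error 0.08, adjusted p = 3.4e-05 from edgeR), and in B184 it was 0.05, with a 95% interval from −0.12 to 0.22. EUG1 had 81.2 and 82.2 CPM in B184, 64.6 and 59.8 CPM in MH34, and 80.5 and 71.0 CPM in AAC at 0.1/h, with a log2 fold change in MH34 of −0.28 (adjusted p = 0.0141 from edgeR). MPD2 and ERV2 fell by 0.24 and 0.32 on the log2 scale in MH34 at 0.1/h, with adjusted p of 0.022 and 0.04 from edgeR. The calls of EUG1, MPD2, and ERV2 were lost when single libraries were left out. Without replicate 2 of MH34 at 0.1/h, 3 members (MPD1, EPS1, and ERO1) were still called.

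At 0.2/h, the log2 fold changes of EUG1, MPD2, EPS1, and ERV2 against AAC lay between −0.15 and −0.07 in B184 and between −0.25 and −0.07 in MH34, and none passed the test. The widest 95% interval among them, that of ERV2 in MH34, reached from −0.53 to 0.03. MPD2 had log2 fold changes of −0.07 in both strains, which became 0.02 in B184 and 0.05 in MH34 without normalization beyond the library total. It had 201 and 200.1 CPM in B184, 183 and 218 CPM in MH34, and 212 and 208 CPM in AAC.

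Between B184 and MH34, members were called at 0.1/h and not at 0.2/h. At 0.1/h, 5 members were called higher in B184 than in MH34 and 0 lower, where 29.1% of all genes tested were higher and 33.6% lower. The log2 fold changes were 0.67 for EPS1 (standard error 0.08, adjusted p = 2.2e-05 from edgeR), 0.57 for MPD1 (standard error 0.09), 0.50 for PDI1 (standard error 0.13), 0.39 for EUG1 (standard error 0.09), and 0.39 for ERO1 (standard error 0.12). The adjusted p of the last 4 were 2.2e-04, 0.0057, 0.0022, and 0.0182 in edgeR's test. MPD2 and ERV2 had log2 fold changes of 0.09 and 0.17. The ERO1 call was lost when either library of B184 or MH34 at 0.1/h was left out, with adjusted p from 0.0528 to 0.0977 in edgeR's test. The cultures of both strains had received ethanol at this rate. At 0.2/h, 0 members were called, where 0% of all genes were called higher in B184 and 0.0165% lower, which is 1 gene. An unadjusted p under 0.05 was reached there by 204 genes and by 0 members, and DESeq2's Wald test called 2 genes and 0 members. The member log2 fold changes lay between −0.06 and 0.09, and the widest 95% interval, that of PDI1, reached from −0.35 to 0.22.

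The faster rate moved ERO1, EUG1, and MPD1 up and ERV2 down in all 3 strains. In B184, 3 members were called higher at 0.2/h and 2 lower, where 33.9% and 32.7% of all genes tested were called higher and lower. In MH34, 5 were higher and 1 was lower, against 13.5% and 13.3% of all genes. In AAC, where no ethanol is named, 4 were higher and 2 were lower, against 32.7% and 35.5% of all genes. The median log2 fold change of the 7 genes was 0.20 in B184, 0.71 in MH34, and 0.37 in AAC, and that of all genes tested was 0.01, −0.01, and −0.03.

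ERO1 had the largest estimated rise of the 7 genes in each strain. Its fold at 0.2/h over 0.1/h was 1.54 in B184, 2.04 in MH34, and 1.81 in AAC, and the log2 fold changes were 0.62 (adjusted p = 0.001), 1.03 (adjusted p = 4.0e-04), and 0.85 (adjusted p = 1e-04 from edgeR, standard error 0.12 in each strain). EUG1 had 110.5 and 97.6 CPM at 0.2/h against 81.2 and 82.2 CPM at 0.1/h in B184, 101 and 104 CPM against 64.6 and 59.8 CPM in MH34, and 109 and 114 CPM against 80.5 and 71.0 CPM in AAC. The libraries of the 2 rates did not overlap in any strain, and the log2 fold changes were 0.35, 0.72, and 0.56 in B184, MH34, and AAC, with adjusted p from 1.5e-04 to 0.0035 in edgeR's test. MPD1 had log2 fold changes of 0.32 in B184, 0.87 in MH34, and 0.48 in AAC, with adjusted p from 1.6e-04 to 0.0081 in edgeR's test. In B184, its log2 fold change was 0.25 (adjusted p = 0.0742 from edgeR) without replicate 2 at 0.1/h, and 0.22 without normalization beyond the library total, where the call was also lost.

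PDI1 was called higher at 0.2/h in MH34 (log2 fold change 0.71, standard error 0.13, adjusted p = 0.0041 from edgeR) and in AAC (0.37, standard error 0.13, adjusted p = 0.0267 from edgeR). The AAC call was lost without replicate 2 of either AAC group (0.29 and 0.26), without normalization beyond the library total (0.22), and when the AAC groups were fitted alone (0.40), and the MH34 call without replicate 1 of MH34 at 0.1/h (0.68, adjusted p = 0.0508 from edgeR). In B184, the log2 fold change was 0.14, with a 95% interval from −0.14 to 0.43. MPD2, whose product acts as a minor isomerase, had log2 fold changes of 0.20 in B184, 0.29 in MH34, and 0.11 in AAC (−0.03 without normalization beyond the library total), and passed the test in MH34 (adjusted p = 0.0267 from edgeR). That call was lost without either MH34 library at 0.1/h and, with 0.16, without replicate 2 at 0.2/h.

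EPS1 and ERV2 ran against the other members. EPS1 had 155 and 151 CPM at 0.2/h against 288 and 273 CPM at 0.1/h in B184, with a log2 fold change of −0.88 (standard error 0.08, adjusted p = 2.4e-06 from edgeR), and 176 and 164 CPM against 252 and 289 CPM in AAC, with a log2 fold change of −0.67 (standard error 0.08, adjusted p = 1.9e-05 from edgeR). In MH34, it had 160.2 and 152 CPM at 0.2/h against 176 and 178 CPM at 0.1/h, and the log2 fold change of −0.18 did not pass the test (adjusted p = 0.103 from edgeR). ERV2 had 85.6 and 94.0 CPM at 0.2/h against 136 and 125 CPM at 0.1/h in B184, 94.0 and 74.5 CPM against 112 and 121 CPM in MH34, and 111 and 88.6 CPM against 139 and 151 CPM in AAC. Its log2 fold change was −0.54 in B184, −0.47 in MH34, and −0.54 in AAC, with adjusted p of 0.0028, 0.0213, and 0.0028 in edgeR's test. In MH34, the call was lost without either library at 0.1/h and, with −0.31, without replicate 2 at 0.2/h.

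**Figure D4:**
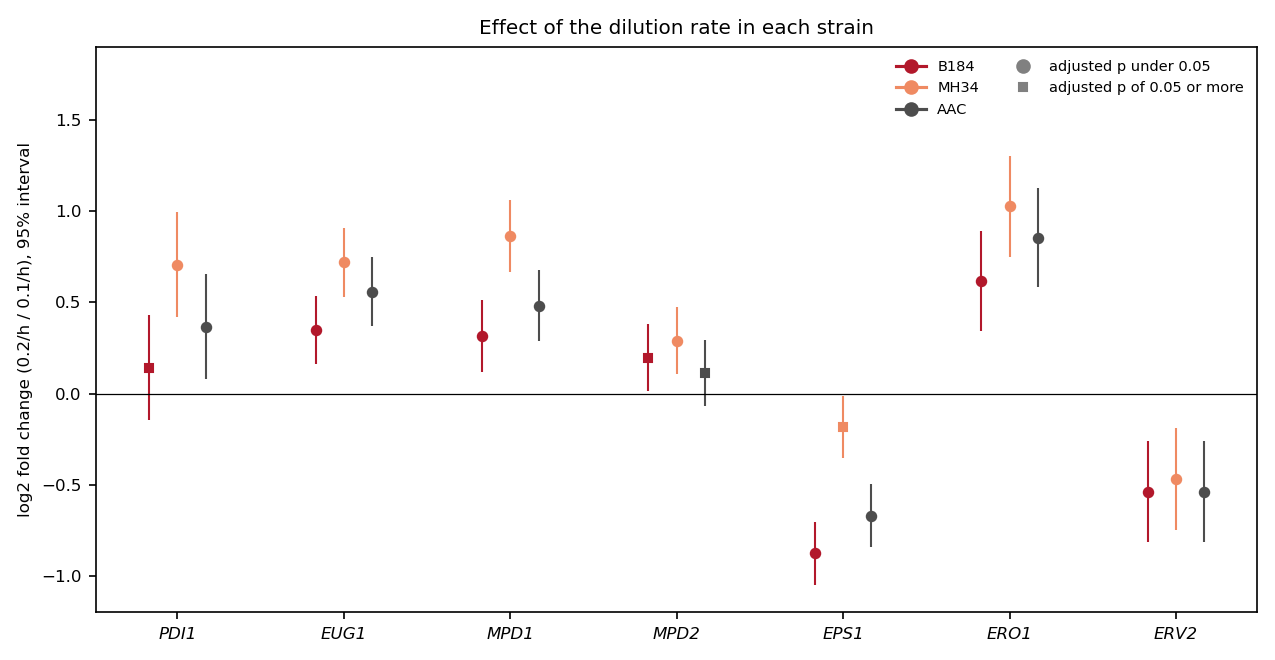
Log2 fold change of each member at 0.2/h over 0.1/h in B184, MH34, and AAC, with 95% intervals from edgeR's quasi-likelihood fit. Round points passed an adjusted p of 0.05 and square points did not. ERO1, EUG1, and MPD1 lie above 0 and ERV2 lies below 0 in all 3 strains, and EPS1 lies at −0.88 in B184, −0.18 in MH34, and −0.67 in AAC.

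Whether the rate effects differed between strains was tested with interaction contrasts. Against AAC, 2 members had a more positive rate effect in MH34 and 0 a more negative one, where 26.6% of all genes tested were called in each direction. These were EPS1, with a difference of 0.49 in log2 fold change (standard error 0.11, adjusted p = 0.0035 from edgeR), and MPD1, with a difference of 0.38 (standard error 0.13, adjusted p = 0.0233 from edgeR). The MPD1 call was lost without any 1 of 5 libraries, among them replicate 2 of MH34 at 0.2/h, which gave 0.28. For B184 against AAC, 0 members were called, where 3.26% of all genes had a more positive and 2.23% a more negative rate effect. In this comparison 1347 genes and 0 members had an unadjusted p under 0.05, and 332 genes were called. A comparison of B184 with MH34 was added after the values were seen. There, 0 members had a more positive rate effect in B184 and 4 a more negative one, against 27.8% and 24.1% of all genes. They were EPS1 (−0.69, adjusted p = 3.8e-04), MPD1 (−0.55, adjusted p = 0.0037), PDI1 (−0.56, adjusted p = 0.0239), and EUG1 (−0.37, adjusted p = 0.0231 from edgeR in each case). The calls of PDI1 and EUG1 were lost without any 1 of several libraries, with adjusted p up to 0.0898 and 0.103. ERO1 differed by −0.41 (adjusted p = 0.0715 from edgeR).

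PDI1 lies on chromosome III, whose median gene was raised in B184 and MH34. The median log2 fold change of the 150 tested genes of chromosome III was 0.96 in B184 and 0.99 in MH34 against AAC at 0.2/h, and 0.90 and 0.84 at 0.1/h. PDI1, with 0.58, 0.64, 0.81, and 0.30 in the same order, lay below it each time. It also lay below the median of the 5 tested genes on either side, which was 1.24 in both evolved strains at 0.2/h and 1.18 in B184 and 0.50 in MH34 at 0.1/h. Of these 10 neighbors, 8 were above PDI1 in B184 and 9 in MH34 at 0.2/h. The part of the chromosome in the PDI1 result was not tested, and the strain and the level of chromosome III cannot be told apart in these libraries.

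ERO1 and MPD1 lay below their neighbors in the comparisons with AAC. ERO1, near the left end of chromosome XIII, has 7 tested genes within 5 positions, and all 7 had higher log2 fold changes than ERO1 in each of the 4 comparisons with AAC, with medians from 0.12 to 0.83. All 10 genes that flank MPD1 likewise had higher log2 fold changes than MPD1 in each of the 4 comparisons, with medians from 0.07 to 0.65. The chromosome medians were between −0.05 and 0.01 for both. Between the rates, the place of both genes among their neighbors differed from strain to strain. Of the 7 neighbors of ERO1, 4 had a higher log2 fold change than ERO1 in B184, 0 in MH34, and 2 in AAC, and of the 10 of MPD1, 5 were higher than MPD1 in B184, 0 in MH34, and 4 in AAC. In B184, ERO1 and MPD1 lay below the median of their neighbors, with differences of −0.28 and −0.25.

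**Figure D5:**
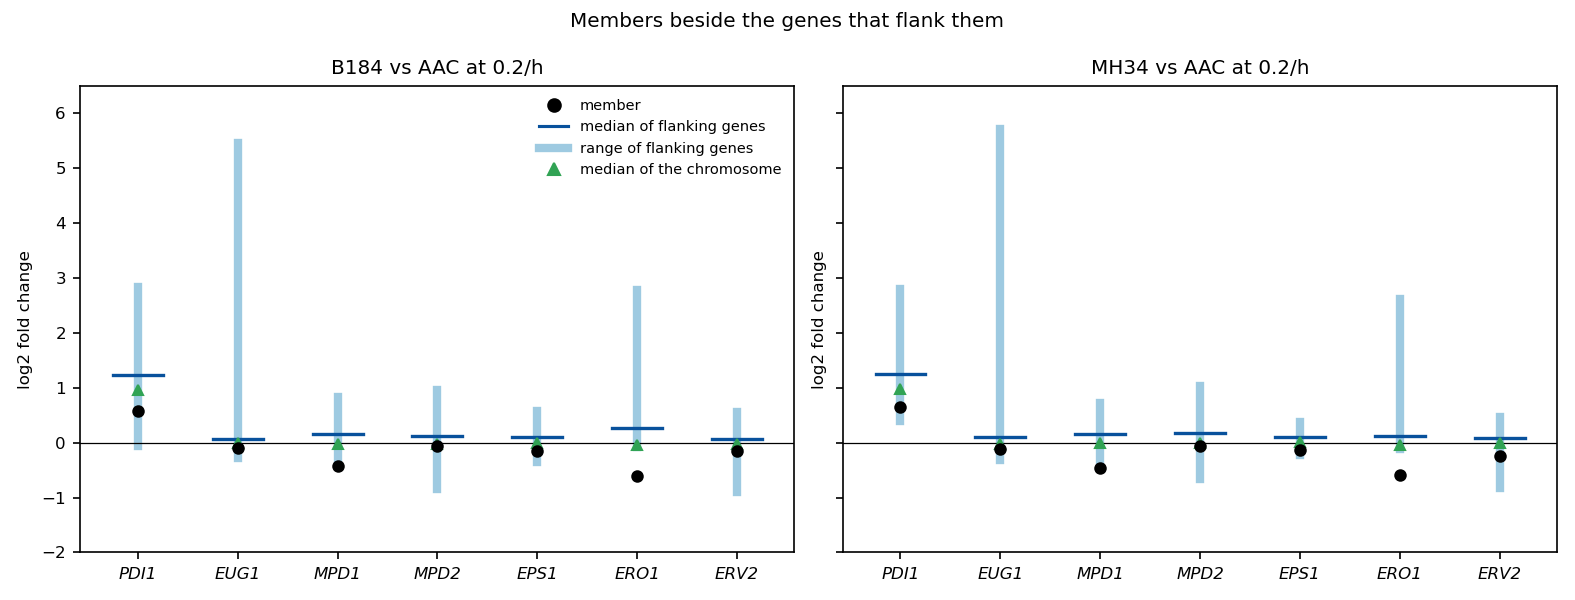
Log2 fold change at 0.2/h in B184 (left) and MH34 (right) over AAC for each member (black point), the median (dark line) and range (light bar) of the tested genes within 5 positions on either side, and the median of its chromosome (triangle). PDI1 lies below the chromosome III median of 0.96 and 0.99, and ERO1 and MPD1 lie below all their flanking genes.

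The patterns of the members were compared over the 12 libraries. As a description, with libraries that share strain and rate, the Pearson r of log2 CPM was 0.96 between ERO1 and MPD1, 0.90 between ERO1 and EUG1, and 0.89 between MPD1 and MPD2. EPS1 and ERV2 had an r of 0.88 with each other. PDI1 had an r of 0.52 to EUG1, 0.16 to MPD2 and to ERO1, 0.13 to MPD1, −0.43 to EPS1, and −0.71 to ERV2. The 5536 genes compared averaged 50 counts or more, and the 3 most like ERO1 were SEC63 (0.995), a subunit of the ER translocon, PMT2 (0.992), a protein O-mannosyltransferase, and SIL1 (0.985), the nucleotide exchange factor of the ER chaperone Kar2p. Those most like MPD1 were LHS1 (0.981), an ER chaperone of the Hsp70 family, BFR1 (0.970), and PMT1 (0.963), another O-mannosyltransferase. EUG1 was most like TOM5 (0.956), a subunit of the mitochondrial import pore, GWT1 (0.953), which acts in GPI anchor synthesis, and ERP1 (0.947), of the p24 family of ER-to-Golgi transport. MPD2 was most like GUP1 (0.926), ALG9 (0.922), a mannosyltransferase of N-glycan synthesis, and SOP4 (0.913). In contrast, PDI1 was most like BAT1 (0.980), the mitochondrial branched-chain aminotransferase, YGR035C (0.934), and VHR2 (0.917). EPS1 was most like YBL029C-A (0.994), UFD2 (0.991), and SNF7 (0.990), and ERV2 like SPO22 (0.983), YPR003C (0.968), and MCM7 (0.963).

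A list of 12 chaperones, cochaperones, and genes of the unfolded protein response in the ER had no member called higher than in AAC. At 0.2/h against AAC, 0 of the 12 were called higher and 8 lower in B184, where 17.7% of all genes tested were lower, and 0 were higher and 7 lower in MH34, against 15.7% of all genes, with medians of −0.34 and −0.32. At 0.1/h, 0 were higher, 4 were lower, and 8 were not called in B184, against 20.4% of all genes called lower, and 0 were higher and 11 lower in MH34, against 33.3%, with medians of −0.17 and −0.41, against medians of all genes tested between −0.04 and 0.02 in the 4 comparisons. HAC1, the transcription factor of the unfolded protein response, had log2 fold changes of −0.77 in B184 and −0.70 in MH34 at 0.2/h, and −0.80 in B184 and −1.31 in MH34 at 0.1/h. Counts per gene do not tell forms of the HAC1 mRNA apart, and the activity of the response was not measured. KAR2, the main Hsp70 chaperone of the ER, fell by 0.68 in B184 and 0.71 in MH34 on the log2 scale at 0.2/h. At 0.1/h, its log2 fold change was −0.23 in B184 and −0.43 in MH34 (adjusted p = 0.26 and 0.028 from edgeR). With the faster rate, 6 of the 12 were called higher and 3 lower in B184, against 33.9% and 32.7% of all genes. In MH34, 9 were higher and 0 lower, against 13.5% and 13.3%, and in AAC 6 were higher and 0 lower, against 32.7% and 35.5%. KAR2 rose by 0.84, 1.0, and 1.29 and SIL1 by 0.92, 1.38, and 1.09 on the log2 scale in B184, MH34, and AAC. Between B184 and MH34, 6 were higher in B184 and 1 was lower at 0.1/h, against 29.1% and 33.6% of all genes, and 0 were called at 0.2/h. FPR2, an ER peptidyl-prolyl isomerase that lies next to EUG1, was 1 of the genes called higher with rate in all 3 strains.

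A second list held 10 genes of glutathione, of thiol redox, and of the flavin cofactors on which both oxidases depend. It showed no common direction against AAC. Between the rates, more of its genes were called lower than higher in each strain. Against AAC at 0.2/h, 2 were higher and 0 lower in B184, where 18.4% and 17.7% of all genes tested were called higher and lower. In MH34, 2 were higher and 1 lower, against 17.4% and 15.7% of all genes. At 0.1/h, 2 were higher and 1 lower in B184, against 16.5% and 20.4% of all genes. In MH34, 5 were higher and 5 lower at this rate, against 35.5% and 33.3%. With the faster rate, 3 were higher and 6 lower in B184, against 33.9% and 32.7% of all genes. In MH34, 0 were higher and 3 lower, against 13.5% and 13.3%. In AAC, 2 were higher and 6 lower, against 32.7% and 35.5%. The median of the list was −0.24 in B184, −0.06 in MH34, and −0.22 in AAC. That of all genes tested was 0.01, −0.01, and −0.03. GSH1, the first enzyme of glutathione synthesis, fell by 1.20, 1.15, and 0.47 on the log2 scale with rate in B184, MH34, and AAC. FAD1, which makes FAD, fell by 0.42 in B184 and 0.71 in AAC, and in MH34 its log2 fold change was −0.06. ERV1, the mitochondrial relative of ERV2, had higher levels in B184 (log2 fold change 0.33) and in MH34 (0.24) than in AAC at 0.2/h. The adjusted p were 0.012 and 0.049 in edgeR's test. At 0.1/h, its log2 fold change was −0.03 in B184 and −0.24 in MH34 (adjusted p = 0.79 and 0.027 from edgeR).

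The 300 bases before the start codon of each member were searched on both strands for short motifs. These were CAGNGTG, a form of the core of the unfolded protein response element, and TACGTG, a second motif reported for genes of that response. The same bases were also searched for CCCCT, the stress response element. The motifs were chosen after the values of the genes were seen. CAGNGTG and CCCCT were found in 0 of the 7 windows, and in 5.67% and 22.2% of the windows of 6001 protein-coding genes. The PDI1 window holds a stretch that departs from CAGNGTG in a single base. Other forms of the element were not searched for, so a window without CAGNGTG need not lack the element. TACGTG was found once each before EUG1, MPD1, and ERO1, and in 8.22% of all windows. These 3 genes are those called higher with rate in all 3 strains, though the MPD1 call in B184 was lost under some settings. Since the motifs were chosen after the values were seen, this overlap is not a test of a link. The stretches that hold the motif are shown 5′ to 3′ on the strand of the gene, with the match in capitals (CACGTA is TACGTG on the other strand).
EUG1, 174 bases before the start codon: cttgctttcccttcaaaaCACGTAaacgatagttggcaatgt
MPD1, 102 bases before the start codon: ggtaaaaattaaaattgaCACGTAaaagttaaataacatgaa
ERO1, 139 bases before the start codon: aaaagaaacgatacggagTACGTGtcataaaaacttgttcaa

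The stretches lie on chromosome IV from 1478416 to 1478457, on chromosome XV from 853156 to 853197, and on chromosome XIII from 13290 to 13331. In the list of 12 ER genes, TACGTG was found before SIL1 and ERJ5 and CAGNGTG before KAR2 and LHS1. Like SIL1 and ERJ5, the genes KAR2, LHS1, SCJ1, and FPR2 were called higher with rate in every strain. None of these last genes had a TACGTG match. A match describes these letters in the reference sequence. It says nothing about binding, and a window without a match says only that the letters are not in these 300 bases.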

How the data were processed

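The authors prepared stranded mRNA libraries, sequenced them as paired reads, mapped the reads to the R64-1-1 genome with the nf-core RNA-seq pipeline, and deposited raw counts per gene. The submitters' processing notes name TopHat2 2.0.12, Cufflinks 2.2.1, and Subread 1.4.6 without their roles. The strand setting and the handling of multimapped reads are not given in the sources used here. Of 7126 gene entries, 6048 matched RefSeq R64, and the other 1078 held 0.194% to 0.216% of the counts. Counts were normalized by TMM, filtered, and tested in edgeR 4.0.16 (R 4.3.3) with its robust quasi-likelihood method, fitting the 6 groups together, with Benjamini-Hochberg adjustment over 6044 genes. The members were taken by family membership, not by a cutoff on measured values, but they and the gene lists were chosen with earlier results of these data known. The genes named are the 7 members, genes of the 2 lists, the 3 genes most like each member, and the 5 tested genes on either side. Log2 CPM for correlations used a prior count of 2. Alternatives were RLE scaling, no scaling beyond the library total, TMM without chromosome III, DESeq2 1.42.0, 2 other filters, a fit of the compared groups alone, a replicate block, and each library left out. Replicates were labeled biological, and the p-values set group differences against the spread between replicate cultures. Each evolved strain is 1 isolate, so the p-values do not cover the spread between isolates.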

Additional observations from a re-analysis of the deposited data

Results flagged for a closer look

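The rate effect differed between strains by a test of the interaction for 4 members. In MH34 compared with AAC, the difference in log2 fold change was 0.49 for EPS1 (adjusted p = 0.0035 from edgeR) and 0.38 for MPD1 (adjusted p = 0.0233 from edgeR), where 26.6% of all genes tested were called in each direction. The MPD1 call was lost when single libraries were left out. In B184 compared with MH34, a comparison added after the values were seen, the difference was −0.69 for EPS1 (adjusted p = 3.8e-04), −0.55 for MPD1 (adjusted p = 0.0037), −0.56 for PDI1 (adjusted p = 0.0239), and −0.37 for EUG1 (adjusted p = 0.0231, all from edgeR), where 27.8% of all genes were called in the positive and 24.1% in the negative direction. The calls of PDI1 and EUG1 were lost when single libraries were left out. The dilution rate and the ethanol added at 0.1/h cannot be told apart within MH34 and B184.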

How the results depend on the processing

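Of the 43 calls of members in 12 comparisons, 29 held under all 8 alternative settings and with each library of the compared groups left out, and none of the 43 reversed its direction. Among results that did not pass the test, MPD2 changed sign without normalization beyond the library total in 3 comparisons, to 0.05 in MH34 and 0.02 in B184 against AAC at 0.2/h and to −0.03 between the rates in AAC. PDI1 in B184 at both rates and in MH34 at 0.2/h, and ERO1 and MPD1 in both evolved strains at 0.2/h, were among those that held. The PDI1 difference in MH34 at 0.1/h passed the test with TMM without chromosome III, with a minimum of 10 counts per library, and with DESeq2. In B184 against AAC at 0.1/h, 3 members were called, 1 without normalization beyond the library total, 1 with only the compared groups in the fit, and 1 to 3 when a library was left out. With a library left out, 3 to 7 members were called instead of 6 in MH34 against AAC at 0.1/h (3 without replicate 2 of MH34), 3 to 7 instead of 6 between the rates in MH34 (3 without replicate 1 at 0.1/h), 1 to 4 instead of 2 for the rate dependence of MH34 against AAC, and 2 to 5 instead of 4 for that of B184 against MH34. Without normalization, 5 members were called for the rate dependence of MH34 against AAC. The replicate block left 2 members called in B184 against AAC at 0.1/h, and the count of members was otherwise the same. Same-numbered libraries had correlated deviations above 0.1 in 1 of 15 group pairs (−0.20 to 0.37). With 2 libraries per group, this cannot settle whether the numbers pair them. Without normalization, the median of all genes moved by over 0.1 in 6 comparisons, most for the rate dependence of MH34 (0.22), and the share of calls that were higher moved to 76.7% (52.6% with TMM) in MH34 and 70.9% (51.0%) in B184 against AAC at 0.2/h, 58.8% (46.4%) in B184 against MH34 at 0.1/h, 36.8% (47.9%) between rates in AAC and 65.7% (50.3%) in MH34, and 68.2% (50%), 73.9% (59.3%), and 39.2% (53.6%) for the rate dependence of MH34 and of B184 against AAC and of B184 against MH34. Over all genes, B184 against AAC at 0.1/h had 2230 calls, 1149 with only the compared groups fitted, and the rates in MH34 had 1619, as few as 433 with a library left out. The causes were not tested. The least counted member, EUG1, had 511 counts in its lowest library.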
